A study of Rattus norvegicus with 6 samples.

Results

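Genes of salt transport in the thick ascending limb of the kidney, and of its regulation, were followed in the renal cortex of rats given dipropylene glycol. The 7 genes were Slc12a1, Kcnj1, Bsnd, Casr, Ptger3, Umod and Egf, and their probes were those whose RefSeq transcript belongs to 1 of them. All 7 were among the 11924 genes with a symbol that were tested, with 15 of its 61537 probes, and all 15 probes were well above background on all 6 arrays. The treated group held 3 male Sprague-Dawley (Crl:CD(SD)) rats dosed with 1000 mg/kg/day of dipropylene glycol (DPG), which is used as a solvent. The control group held 3 male rats of the same strain given water. Treatment lasted 4 weeks in both groups, and the rats were bought at 5 weeks of age and kept on a basal diet with tap water. Each animal gave 1 one-colour Agilent array of total RNA, and this small number of arrays limits precision.

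The thick ascending limb takes up sodium chloride from the tubular fluid without water, and so dilutes the urine and feeds the concentration gradient of the medulla. The NKCC2 cotransporter (Slc12a1) brings sodium, potassium and chloride in at the apical membrane, the ROMK channel (Kcnj1) returns potassium to the lumen, and chloride leaves on the blood side through channels that need the subunit barttin (Bsnd). In humans, loss of any of SLC12A1, KCNJ1 or BSND causes Bartter syndrome, a salt-losing disorder. The calcium-sensing receptor (Casr) and the prostaglandin E2 receptor EP3 (Ptger3) restrain this transport. The same segment makes uromodulin (Umod), the main protein of normal urine, and the precursor of epidermal growth factor (Egf), which in rodents is also made in the early distal convoluted tubule.

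The windows upstream of 3 of these genes are shown because their measured signal was higher in DPG at an unadjusted p of 0.05. Each holds the 250 bases before the annotated start, 5′ to 3′ on the strand of the gene, from RefSeq on the rat assembly GRCr8. The Umod window is chr1:183261017-183261266 on the minus strand, that of Slc12a1 (the first of 2 listed) is chr3:132859409-132859658 on the plus strand, and that of Egf is chr2:220976298-220976547 on the minus strand. Capitals mark TATAAA, the letters of a TATA box.
Umod: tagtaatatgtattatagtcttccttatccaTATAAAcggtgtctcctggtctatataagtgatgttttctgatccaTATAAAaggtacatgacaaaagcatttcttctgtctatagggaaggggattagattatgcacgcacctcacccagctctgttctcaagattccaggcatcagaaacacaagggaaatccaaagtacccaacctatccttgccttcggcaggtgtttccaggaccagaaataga
Slc12a1: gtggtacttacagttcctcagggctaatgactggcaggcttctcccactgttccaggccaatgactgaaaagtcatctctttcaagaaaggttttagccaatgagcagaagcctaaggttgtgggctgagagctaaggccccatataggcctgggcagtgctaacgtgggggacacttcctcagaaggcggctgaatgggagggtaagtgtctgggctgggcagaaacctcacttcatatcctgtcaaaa
Egf: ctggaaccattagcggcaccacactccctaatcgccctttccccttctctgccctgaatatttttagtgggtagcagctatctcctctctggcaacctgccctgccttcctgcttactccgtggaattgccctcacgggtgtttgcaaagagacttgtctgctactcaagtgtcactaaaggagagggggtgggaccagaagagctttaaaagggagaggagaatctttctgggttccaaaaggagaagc

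Motifs were searched on both strands in the 9 windows of the 7 genes. TATAAA stood at 2 places in the Umod window, starting 219 and 173 bases before the annotated start, and once in 1 of 2 Kcnj1 windows, 41 bases before it. The same letters were found in 12.9% of 33360 upstream windows of rat genes. AAGGTCA, part of the site of some nuclear receptors, occurred in 0 of the 9 windows and in 4% of all windows. No matches overlapped, and the printed windows shared no motif. A match is a description of letters and not a binding site.

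Values below are log2 processed signals minus the 75th percentile of the array, so that 0 is the 75th percentile. Signals of different probes cannot be set against each other, since each probe binds its target with its own strength. Log2 fold changes are DPG over control with the standard error (SE) from limma, n = 3 per group. The brightest probe stood for each gene in a fit over 29647 features, and p-values were adjusted over all of them by the Benjamini-Hochberg method. No feature passed an adjusted p of 0.05 (limma, 0 of 29647 or 0%), and 3669 (12.4%) had an unadjusted p under 0.05. The DPG arrays shared 1 slide and the control arrays shared a second one, so slide and treatment cannot be told apart. Control 3 had the fewest probes well above background (39556, against 41524 to 43184 on the other arrays) and 34 spots with outlier flags. In bulk tissue fewer cells of a type and less RNA per cell cannot be told apart, nor can their opposites.

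Slc12a1, Umod and Egf had higher signal in the DPG rats, at 1.39-fold, 1.19-fold and 1.23-fold of control, while Bsnd and Ptger3 lay slightly below control. Kcnj1 and Casr lay between these, at 1.15-fold and 1.18-fold. Of the 7 members, 3 had an unadjusted p under 0.05 and a higher signal in DPG, against 6.68% of all features, and 0 were lower at that level, against 5.7%. For 3 members (Slc12a1, Umod and Casr) every DPG array lay above every control array. Groups without overlap were seen in 19.7% of all features, 10.7% with DPG higher and 8.96% with DPG lower. None of the 7 passed the adjusted threshold, and the smallest adjusted p among them was 0.296 (limma, Umod). The median log2 fold change of the 7 genes was 0.23, beside 0.0035 for all features.

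**Figure D1:**
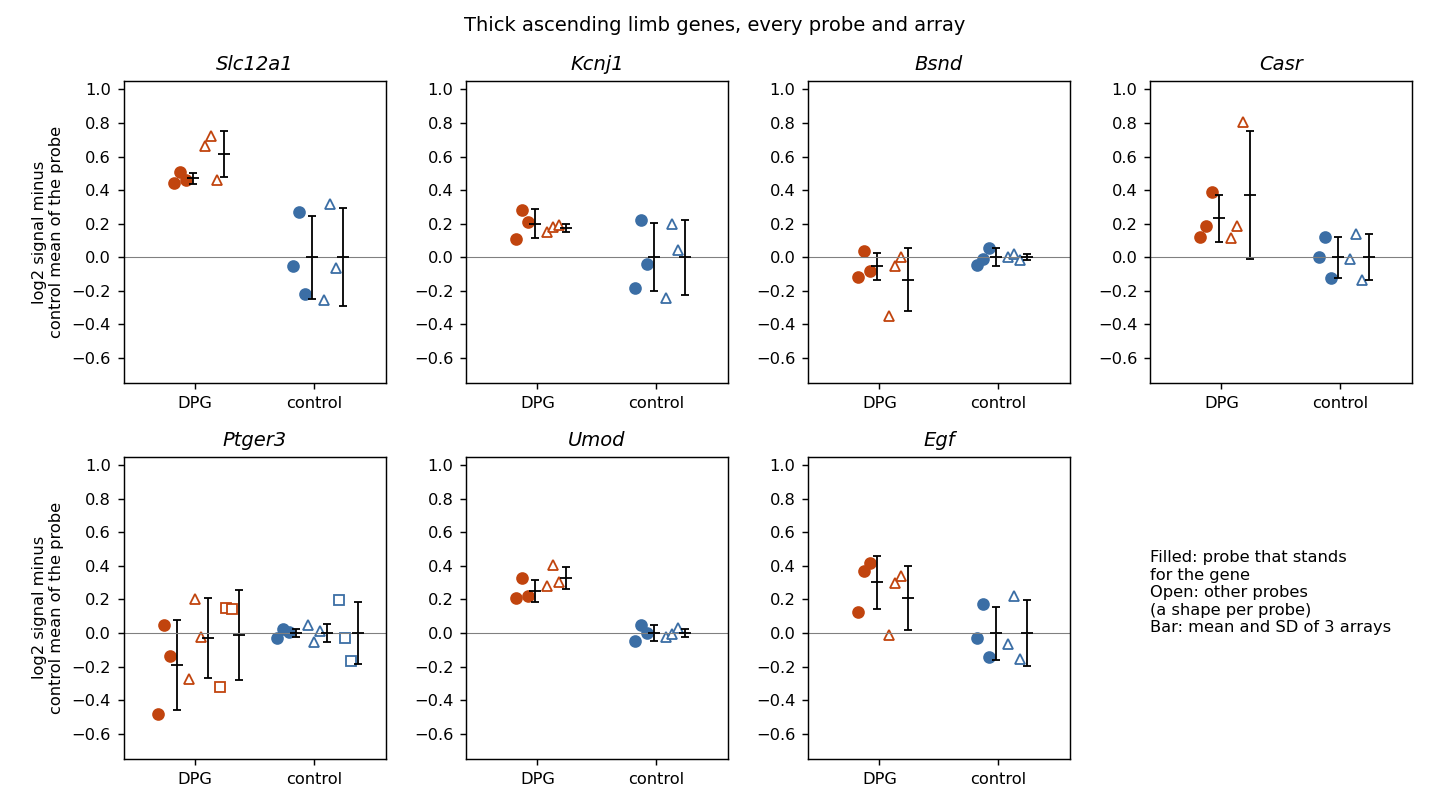
Log2 signal of every probe of the 7 genes (vertical axis, as the difference from the probe's own control mean) on 3 DPG arrays (left) and 3 control arrays (right), with a shape per probe and the mean and SD beside the points. Both probes of Slc12a1 and of Umod separate the groups, while the points of Kcnj1, Bsnd and Ptger3 overlap.

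Slc12a1 encodes the cotransporter that loop diuretics block. Its signal was 5.42, 5.48 and 5.43 (log2) in DPG 1 to 3, against 4.92, 5.24 and 4.75 in controls 1 to 3. The DPG arrays lay close together (SD 0.03) and above every control array, and the controls spread more widely (SD 0.25), with control 2 the nearest to the DPG arrays. The log2 fold change was 0.47 ± 0.13 (SE), with a 95% interval from 0.15 to 0.79 and an adjusted p = 0.305 (limma). Its other probe read 5.04, 5.09 and 4.83 in DPG 1 to 3, against 4.12, 4.69 and 4.31 in controls 1 to 3, a log2 fold change of 0.62 ± 0.16. Both probes thus placed all DPG arrays above all control arrays. Both are assigned to the same transcript, and splice forms were not told apart.

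Kcnj1 encodes ROMK, the apical potassium channel without which the cotransporter runs out of luminal potassium. Its signal was 0.90, 1.08 and 1.00 (log2) in the DPG rats, against 0.61, 1.01 and 0.76 in the control rats. Control 2 lay inside the DPG range, and the other controls lay below it. At 0.20 ± 0.12, its log2 fold change had a 95% interval from -0.09 to 0.49, which holds both no difference and one as large as that of Slc12a1. The second probe gave 0.17 ± 0.12.

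Bsnd encodes barttin, which carries chloride channels to the membrane in the loop, in the inner ear and in other cells. Its signal was 1.75, 1.91 and 1.78 (log2) in DPG 1 to 3, against 1.82, 1.86 and 1.92 in controls 1 to 3. The groups overlapped, and the log2 fold change was -0.05 ± 0.07 with a 95% interval from -0.23 to 0.13. The second probe read 0.59 in DPG 1, below its other arrays, which lay between 0.88 and 0.95, and gave a log2 fold change of -0.13 ± 0.11.

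Since Slc12a1 and Bsnd serve the same transport process, their difference was formed within each array and centred on its control mean. The pairs were chosen after the values were seen. In bulk cortex the segments that gave the signal of each gene were not told apart, so a difference need not lie within 1 cell type. Slc12a1 minus Bsnd was 0.56, 0.47 and 0.54 (log2) in the DPG arrays, against -0.004, 0.28 and -0.28 in the controls. Umod minus Bsnd was 0.33, 0.29 and 0.30 in the DPG arrays, against -0.002, 0.06 and -0.06 in the controls. In both pairs the groups were separate, with mean differences of 0.52 and 0.31. Slc12a1 minus Kcnj1 was 0.34, 0.23 and 0.25 in the DPG arrays, against 0.13, 0.05 and -0.18 in the controls, which also left no overlap. An exact permutation test of 3 against 3 arrays, two-sided, gave p = 0.1 for each of these differences, the smallest that it can give, and p = 0.125 after adjustment over 5 pairs. The adjustment does not cover the choice of the pairs, so these p-values do not test the differences.

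Casr, which senses calcium in the blood and reduces salt and calcium uptake in the loop, had a signal of 4.37, 4.44 and 4.64 (log2) in DPG 1 to 3, against 4.25, 4.37 and 4.13 in controls 1 to 3. The lowest DPG array and the highest control array differed by under 0.01, so the groups were only just separate. Casr thus had a log2 fold change of 0.23 ± 0.10 with an unadjusted p = 0.0679 (limma). On the second probe DPG 3 stood at 2.66, above 1.97 and 2.03 in DPG 1 and DPG 2, and the controls were 1.84, 1.99 and 1.72. That probe had a log2 fold change of 0.37 ± 0.20, and its groups overlapped.

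Ptger3 encodes the receptor through which prostaglandin E2 lowers cyclic AMP and salt uptake in this segment. Its signal was -2.25, -1.72 and -1.90 (log2) in DPG 1 to 3, against -1.80, -1.75 and -1.76 in controls 1 to 3. DPG 1 was the lowest array on all 3 probes of the gene. The control arrays of the brightest probe varied by an SD of 0.03 and the DPG arrays by one of 0.27. This gave a log2 fold change of -0.19 ± 0.14 (95% interval from -0.53 to 0.15), and the other probes gave -0.03 and -0.01. Without DPG 1 the value was -0.04.

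Umod encodes uromodulin, a glycoprotein held on the apical membrane by a lipid anchor and released into the urine by the protease hepsin. Its signal was 9.17, 9.29 and 9.18 (log2) in DPG 1 to 3, against 8.92, 9.02 and 8.96 in controls 1 to 3. Every DPG array lay above every control array, and the spread within a group was small (SD 0.06 in DPG and 0.05 in control). The log2 fold change was 0.25 ± 0.07 (95% interval from 0.08 to 0.42), with an adjusted p = 0.296 (limma). The second probe gave 9.13, 9.26 and 9.16 in the DPG rats, against 8.83, 8.85 and 8.88 in the control rats, and a log2 fold change of 0.33 ± 0.07. No spot was saturated on any array.

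Egf encodes the membrane-bound precursor from which epidermal growth factor is cut and shed into the urine. Its signal was 5.27, 5.51 and 5.56 (log2) in DPG 1 to 3, against 5.12, 5.32 and 5.005 in controls 1 to 3. DPG 1 lay below control 2, so the groups overlapped. Egf had a log2 fold change of 0.30 ± 0.12, with a 95% interval from 0.01 to 0.60 and an adjusted p = 0.396 (limma). The second probe gave 0.21 ± 0.14. The unadjusted p of 0.0449 was 0.12 without DPG 2, 0.128 without DPG 3, 0.107 without control 1 and 0.133 without control 3.

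On the brightest probe, control 2 was the highest control array for Slc12a1, Kcnj1, Casr, Ptger3, Umod and Egf. It was not the highest on the second probe of Umod or on the other probes of Ptger3. Averaged over the 7 genes, the shift from the control mean was 0.06, 0.25 and 0.21 (log2) in DPG 1 to 3 and -0.06, 0.12 and -0.07 in controls 1 to 3. The groups thus overlapped in the mean of the 7 genes, with DPG 1 below control 2. In the mean without Ptger3, formed after the values were seen, DPG 1 (0.15) lay just above control 2 (0.14). Leaving out any 1 of the other 6 members left the groups overlapping. Without control 2, 5 of 7 members had an unadjusted p under 0.05 (limma), as did 3363 of all 29695 features. When any other animal was left out the count was 2 or 3 members, beside 2569 to 3942 of 29741 to 30881 features.

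The other genes of the segment were read from lists drawn up from the known roles of the genes, with earlier results of these data known. Counts and medians cover all tested genes of a list. Of 22 further transport and kinase genes, 20 were tested, with 13 above 0 and 7 below. At an unadjusted p of 0.05, 4 were higher in DPG, against 6.68% of all features, and 1 was lower, against 5.7%. Of the 20, 0 passed the adjusted threshold. The median log2 fold change of 0.08 stood beside 0.0035 for all features. The shift of the list mean was 0.18, 0.25 and 0.05 in DPG 1 to 3, against -0.01, 0.06 and -0.05 in controls 1 to 3. DPG 3 lay between control 2 and the other controls. Without Cldn14, left out after its wide spread was seen, the list mean was 0.08 to 0.17 in DPG arrays and -0.03 to 0.04 in control arrays. With each of the 20 genes left out in turn, the groups overlapped for 16 and were separate for 4, Cldn14 among these.

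**Figure D2:**
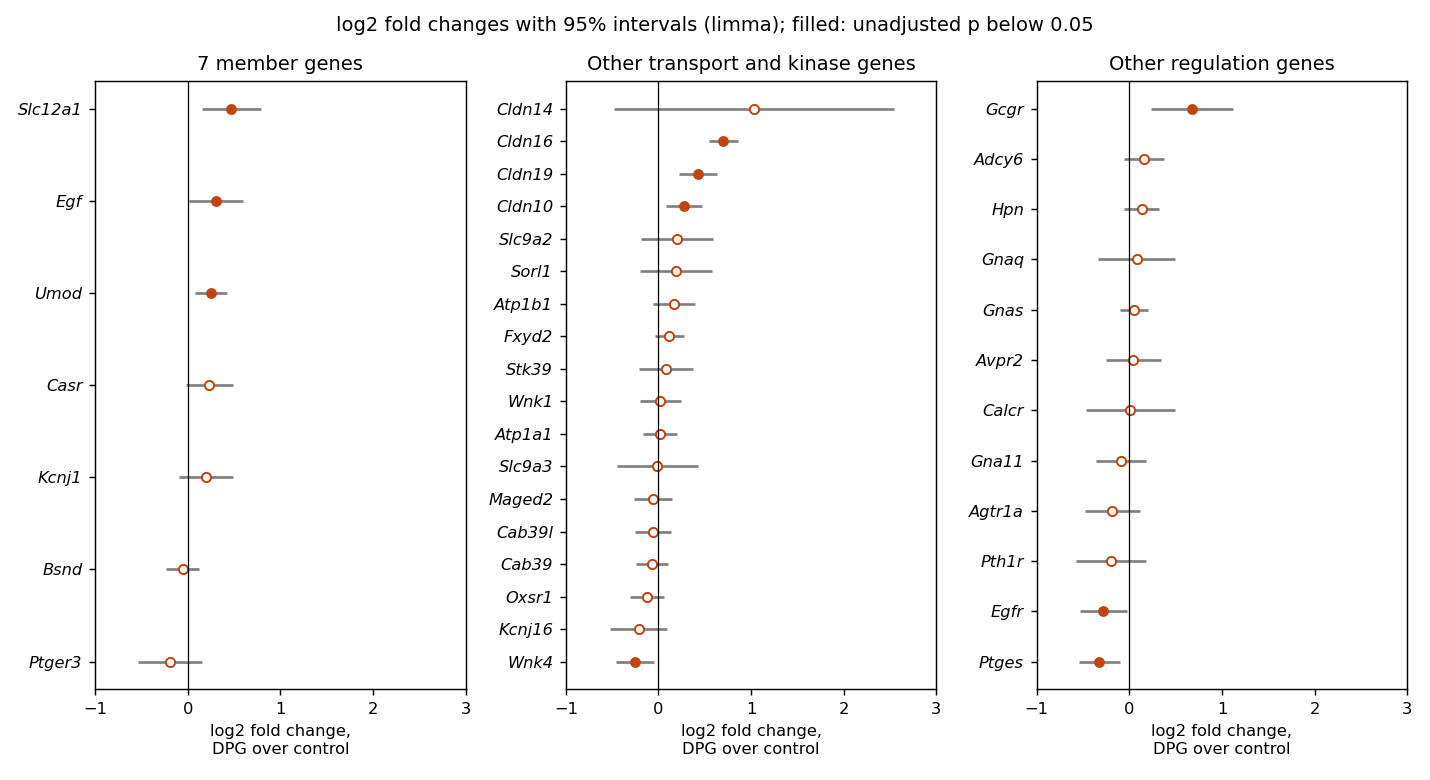
Log2 fold changes, DPG over control, with 95% intervals from limma (horizontal axis) for the 7 members, 18 of the 20 other transport and kinase genes and 12 of the 13 other regulation genes, with filled points at an unadjusted p below 0.05. Slc12a1, Egf and Umod lead the members, and claudin genes lie at the upper end of the transport list.

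Of the 4 higher genes of that list, 3 were claudins. Cldn16 and Cldn19 encode the tight junction pair that lets calcium and magnesium pass between the cells of the loop. Cldn16 stood at 0.11, 0.11 and 0.07 (log2) in DPG 1 to 3, against -0.63, -0.55 and -0.65 in controls 1 to 3, so the groups were far apart against their spread. Cldn19 stood at 3.16, 3.31 and 3.36 in the DPG rats, against 2.88, 2.91 and 2.76 in the control rats, a log2 fold change of 0.43 ± 0.08. Its 3 probes gave values from 0.42 to 0.46, whereas the 2 probes of Cldn16 gave 0.43 and 0.70. Cldn10, another claudin gene, had 0.28 ± 0.08 on its 1 probe, and its splice forms were not told apart.

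Kinases of the WNK and SPAK families switch NKCC2 on by phosphorylation, and for Stk39, Oxsr1 and Wnk1 the groups overlapped. Stk39, which encodes SPAK, had a log2 fold change of 0.08 ± 0.12, and Oxsr1, which encodes the related kinase OSR1, had -0.12 ± 0.08 with 3 probes from -0.12 to 0.07. Wnk1, an upstream kinase of both, had 0.02 ± 0.09 with 4 probes from -0.25 to 0.04. Wnk4, another upstream kinase, stood at 0.17, 0.19 and 0.005 (log2) in the DPG rats against 0.46, 0.32 and 0.35 in the control rats. Its groups did not overlap and its log2 fold change was -0.25 ± 0.08. Fxyd2, the gamma subunit of the sodium pump, had 0.12 ± 0.06 and groups that did not overlap. The potassium channel gene Kcnj10 was not tested, since its 2 probes were well above background on at most 2 of 3 arrays in each group.

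Of 15 further regulation genes, 13 were tested, with 7 above 0 and 6 below and a median of 0.01. At an unadjusted p of 0.05, 1 was higher in DPG, against 6.68% of all features, and 2 were lower, against 5.7%. Of the 13, 0 passed the adjusted threshold. The mean of the list overlapped between the groups, from -0.02 to 0.04 in DPG arrays and from -0.055 to 0.046 in control arrays. Gcgr, the glucagon receptor gene, stood at 3.25, 3.17 and 2.91 (log2) in DPG 1 to 3, against 2.09, 2.70 and 2.52 in controls 1 to 3. Glucagon is a hormone that stimulates salt uptake in the rodent loop through cyclic AMP. The log2 fold change of Gcgr was 0.68 ± 0.18, with control 1 the lowest array.

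Ptges, which encodes a prostaglandin E synthase and so lies upstream of Ptger3, stood at 0.26, 0.51 and 0.52 (log2) in the DPG rats, against 0.78, 0.76 and 0.73 in the control rats. The groups did not overlap, and the log2 fold change was -0.32 ± 0.09. Egfr, the receptor of epidermal growth factor, had -0.28 ± 0.10, the opposite sign to Egf. Its highest DPG array (0.35) lay just below its lowest control array (0.38). Hpn, which encodes hepsin, had 0.13 ± 0.08, Adcy6, an adenylyl cyclase that makes cyclic AMP in the segment, had 0.15 ± 0.09, and the angiotensin receptor gene Agtr1a had -0.18 ± 0.12. The groups overlapped for each of these 3 genes. The macula densa genes Nos1 and Ptgs2 were not tested, as their probes were too dim. Nos1 was well above background on 0 arrays, and Ptgs2 on at most 2 of 3 in each group.

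Genes of neighbouring segments were read in the same arrays. Slc12a3, the thiazide-sensitive cotransporter of the distal convoluted tubule, was 3.93, 3.84 and 3.72 (log2) in DPG 1 to 3, against 3.91, 3.92 and 3.71 in controls 1 to 3. The groups overlapped almost fully, with a log2 fold change of -0.02 ± 0.09. Slc12a1 minus Slc12a3 was 0.37, 0.51 and 0.59 in the DPG arrays, against -0.11, 0.20 and -0.09 in the controls, with no overlap (exact permutation p = 0.1, adjusted p = 0.125 over 5 pairs). Umod minus Slc12a3 was 0.13, 0.33 and 0.35 in the DPG arrays, against -0.11, -0.02 and 0.13 in the controls, where DPG 1 and control 3 met (exact permutation p = 0.2). These pairs too were chosen after the values were seen, which the adjustment does not cover. The distal convoluted list had 1 of 6 tested genes above 0 and a median of -0.12, led by the calcium channel gene Trpv5 (-0.42 ± 0.08) and the calcium binder gene Calb1 (-0.34 ± 0.20).

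Straight proximal tubule markers, which lie beside the thick ascending limb in the outer stripe, had 4 of 6 genes above 0 and a median of 0.39. Their mean shift was 0.22 to 0.36 in DPG arrays and -0.12 to 0.09 in control arrays, led by Slc7a13 (0.78 ± 0.16) and Slc22a7 (0.75 ± 0.23). The 2 genes below 0 were Slc5a8 (-0.39 ± 0.22) and Slc5a1 (-0.12 ± 0.15), also named after their values were seen. Convoluted proximal tubule markers had 9 of 9 genes below 0 and a median of -0.29. Their mean shift was -0.30 to -0.20 in DPG arrays and -0.12 to 0.08 in control arrays. In this convoluted list the smallest p-values belonged to Slc5a12 (-0.29 ± 0.08) and Slc22a8 (-0.23 ± 0.07). Its lowest log2 fold changes belonged to Slc2a2 (-0.40 ± 0.13) and Slc7a7 (-0.38 ± 0.18), named here after their values were seen. Both proximal tubule lists kept separate groups whichever 1 of their genes was left out.

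**Figure D3:**
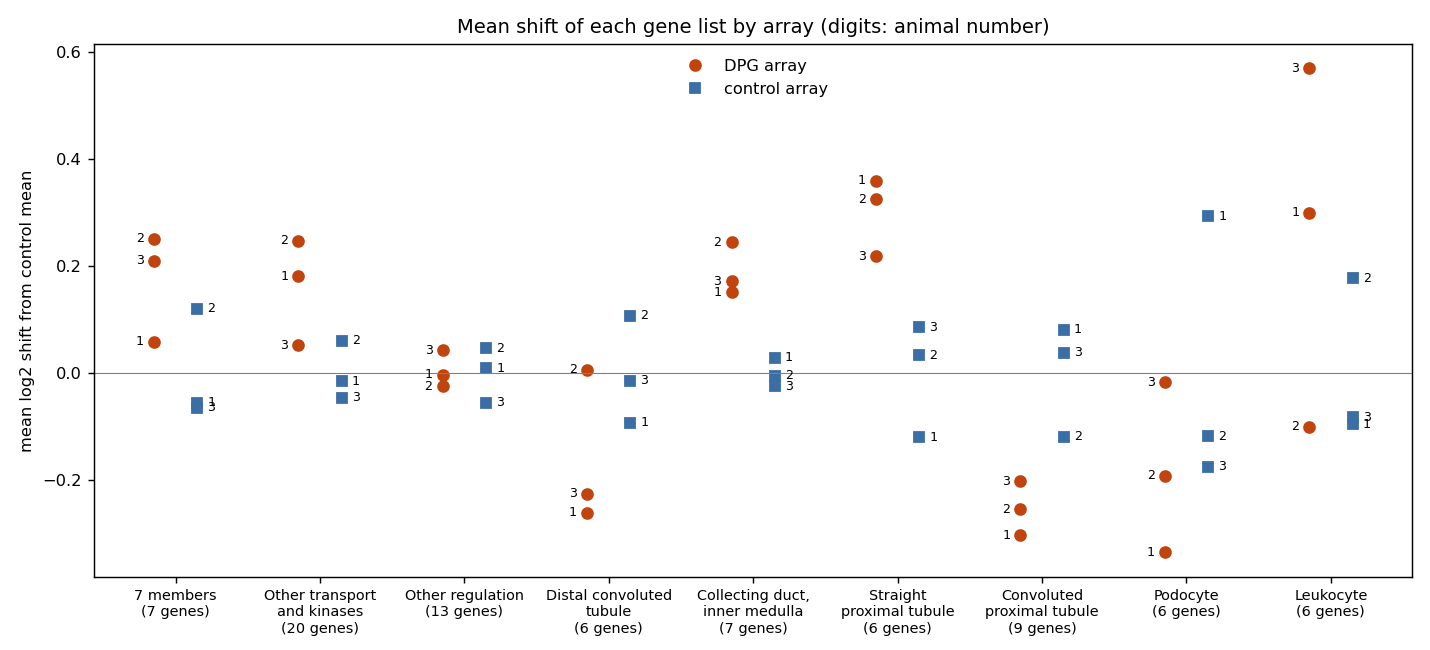
Mean log2 shift of each gene list from its control mean (vertical axis) for 3 DPG arrays (circles, left) and 3 control arrays (squares, right), with the animal number beside each point. The groups do not overlap for the straight proximal tubule, the convoluted proximal tubule and the collecting duct lists, the last of which overlaps without its gene Cryab, and they overlap for the 7 members.

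Collecting duct and inner medulla markers had 4 of 7 tested genes above 0 and a median of 0.02. Their mean shift was 0.15 to 0.25 in DPG arrays and -0.02 to 0.03 in control arrays, but this separation rested on Cryab (1.56 ± 0.35). Without Cryab, a choice made after the values were seen, the mean of the other 6 genes was -0.13, 0.04 and -0.02 in DPG 1 to 3, against 0.17, -0.07 and -0.10 in controls 1 to 3, and the groups overlapped. Of those 6, Aqp4 had 0.29 ± 0.09 (4 probes from -0.25 to 0.35), Aqp2 had 0.17 ± 0.18 and Akr1b1 had 0.02 ± 0.13, while Aqp3 had -0.39 ± 0.19, Hsd11b2 had -0.17 ± 0.11 and Slc14a2 had -0.15 ± 0.16. Podocyte markers had 0 of 6 above 0, a median of -0.21 and mean shifts of -0.34 to -0.02 in DPG arrays and -0.17 to 0.29 in control arrays, with Ptpro at -0.22 ± 0.07 and Wt1 at -0.19 ± 0.07. Leukocyte markers had 6 of 6 above 0 and a median of 0.16. Their mean shifts were -0.10 to 0.57 in DPG arrays and -0.10 to 0.18 in control arrays. Ptprc had 0.19 ± 0.16 (5 probes from -0.24 to 0.21), and Cd3e had 0.89 ± 0.34. Cd3e was well above background on 3 of 3 DPG arrays but 2 of 3 control arrays. It was thus kept only through the DPG group, a filter that favours a value above 0. Without Cd3e, a choice made after the values were seen, the list mean in DPG minus control was 0.13, against 0.26 with it. The lists share the slide with the members, and the part of any of these segments or cells in the values of the 7 genes was not tested. Among the defining markers of these lists, Pvalb of the distal convoluted tubule was not well above background on any array.

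The gene symbols whose profile over the 6 arrays was nearest to a member were found among 11923 others by the root mean square difference of log2 values, each gene centred on its own mean. Nearest to Umod were Nudt12, a Nudix hydrolase gene, at 0.020, Tnfrsf21, a death receptor gene, at 0.023, and Eef2kmt, a lysine methyltransferase gene, at 0.027. Nearest to Slc12a1 were Chst9, a sulfotransferase gene, at 0.045, Amph, the amphiphysin gene, at 0.051, and Prom1, the gene of the membrane protein prominin, at 0.057. Prom1 stood at 4.65, 4.79 and 4.77 (log2) in DPG 1 to 3, against 4.19, 4.40 and 3.99 in controls 1 to 3. It thus shared the high control 2 and the separate groups of Slc12a1. With 6 arrays and this many genes some profiles lie close in any case, so the list is a description.

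**Figure D4:**
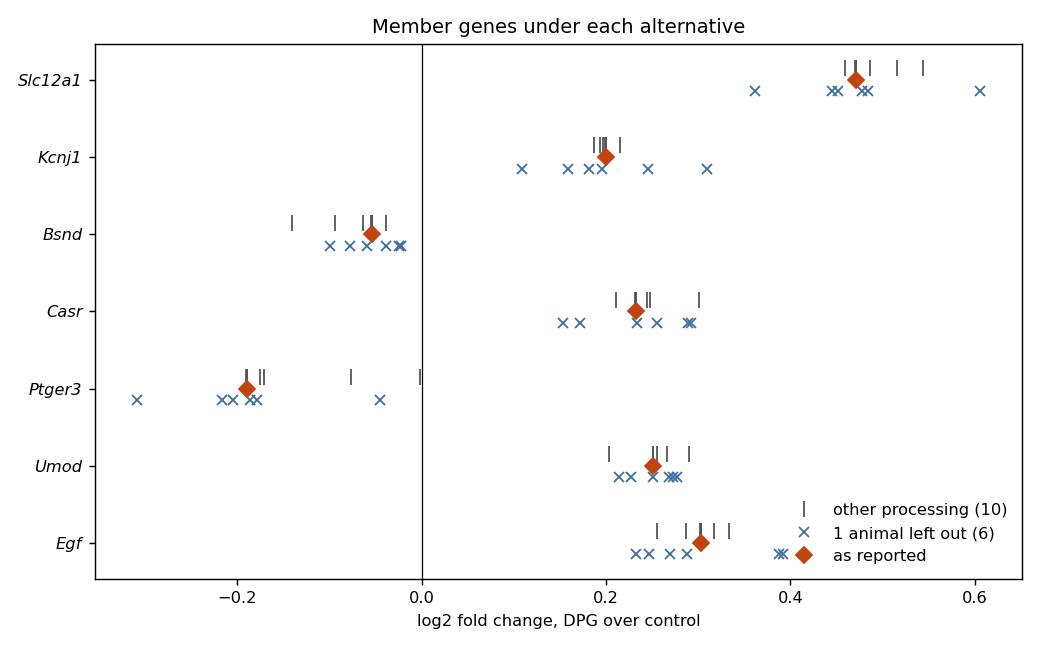
Log2 fold change of each member, DPG over control (horizontal axis), as reported (diamonds), under 10 other processing settings (bars) and with 1 of 6 animals left out (crosses). Slc12a1 stays between 0.36 and 0.61 and Umod between 0.20 and 0.29, and no member changes sign.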

How the data were processed

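Cy3-labelled total RNA of 6 renal cortex samples was hybridised to 1 Agilent array each, per the labels' protocols. Agilent Feature Extraction 10.7.1.1 read the spots, per the file headers. The deposited intensity is the background-subtracted, detrended spot signal, not scaled between arrays, per the file headers. The deposited series table holds linear values, whose ratio to that signal was constant within each array and near its 75th percentile. Their scaling by the submitters is not stated in the labels or headers. Its column medians were 0.111, 0.108 and 0.112 for DPG 1 to 3 and 0.110, 0.111 and 0.114 for controls 1 to 3.

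Log2 signal had the 75th percentile of each array subtracted. Of 61537 probes, 40406 were well above background on all 3 arrays of a group, and 23 of these were dropped for outlier flags. Probes were named by accession through RefSeq genes of GRCr8, where 28206 matched 1 symbol. The brightest kept probe stood for a gene, giving 29647 features. DPG was compared with control by limma 3.58.1 in R 4.3.3 (two-sided, 4 residual and 1.95 prior degrees of freedom), adjusted over all features. The SE of a second probe came from the same fit over all kept probes. In simulated data at these spreads the comparison recovered 36% of genes changed 1.5-fold and 82% changed 2-fold. The members, lists and tests were chosen with earlier results of these data known. Named genes were all members, the 6 of each pathway list and the 2 of each marker list with the smallest p, and a fixed set (Cldn16, Stk39, Oxsr1, Wnk1, Wnk4, Kcnj10, Hpn, Slc12a3). The nearest profiles of Umod and Slc12a1 were also named. Cldn14 and the further marker genes were added after the values were seen, and Nos1, Ptgs2 and Pvalb because they were not tested. A few named genes, which remain in the counts, medians and means of their lists, are not reported here by name. Of 53 listed genes with several kept probes, 12 had probes that disagreed in sign and 24 others had probes over 1.5 times apart in size. Alternatives were the settings named in the closing section.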

Additional observations from a re-analysis of the deposited data

How the results depend on the processing

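The 10 other settings were normexp background correction (offset 50), scaling to the median, quantile normalization, a stricter filter (signal on all 6 arrays), no filter, spots with outlier flags retained, averaged probes, trend and robust variance, the replicate block and the deposited table. Under these, and with each of 6 animals left out, no member changed sign and none passed an adjusted p of 0.05 in limma (smallest 0.174, Umod). Slc12a1 and Umod had an unadjusted p under 0.05 in every one, Egf in 6 of 10 settings and 2 of 6 left-out fits. The count of such members, 3, was 2 to 4 across settings and 2 to 5 over left-out animals. Features past the adjusted threshold numbered 0 in all settings and 0 to 1 over left-out animals (1 without control 2 and 1 without DPG 2). Features at an unadjusted p of 0.05, 3669 as reported, were 4493 with normexp and 2569 to 3942 over left-out animals. Arrays with the same replicate number shared no clear pattern (correlations of deviations from -0.09 to -0.02), which cannot show whether the animals were paired. The replicate block left 2987 features and 2 members at that level. Over left-out animals the median of the regulation list lay between -0.092 (without control 3) and 0.037, and below 0 also without DPG 1, DPG 3 or control 2, with normexp and with averaged probes, and that of the transport and kinase list between 0.036 and 0.11. Ptger3 had -0.0019 with normexp, -0.08 with averaged probes, -0.04 without DPG 1 and -0.31 without DPG 2. The cause of these shifts was not tested. In alternatives chosen after seeing the data, the mean shift in DPG minus control was -0.04 for the collecting duct list without Cryab (0.19 with it) and 0.11 for the transport and kinase list without Cldn14 (0.16 with it).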
